A study of Mus musculus with 11 samples.

Results

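The forkhead genes described here were 43 protein-coding genes of the mouse genome, taken from the coding genes of the RefSeq table for GRCm38.p6 (the mm10 assembly) whose symbol is Fox, 1 letter from a to s and a number, out of 21775 coding genes considered. The family was divided by name and by gene span, the distance between the annotated ends of a gene. The 24 short genes, with spans from 1.31 to 7.40 kb and a median of 3.1 kb, include most of the developmental members. The 8 Foxo and Foxp genes ran from 6.61 to 597 kb, with a median of 69.6 kb, and the 11 remaining genes from 10.3 to 374 kb. The Foxo and Foxp group was set by name, so it also held Foxo4, the shortest of them. The table gives no exons, so the number of exons was not used.

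Forkhead proteins are transcription factors that bind DNA through a winged-helix domain. Many of them are switched on only in particular embryonic tissues, and in cells where they are silent their genes are often kept so by Polycomb proteins. The Foxo proteins, in contrast, are present in many tissues and are held out of the nucleus by Akt kinase signalling, and the Foxp proteins are repressors with roles in neurons, lung and the immune system. In the nervous system Foxa1 belongs to the ventral midbrain, and it also opens chromatin in endoderm.

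Binding of Smchd1, an SMC-related protein with a known part in silencing the inactive X chromosome, was mapped by chromatin immunoprecipitation with an antibody to GFP. The 11 libraries came from C57BL/6 neural stem cells grown from embryos of day 14.5 and passaged up to 20 times. The sonication experiment held 6 female libraries: 2 from cells homozygous for a Smchd1-GFP fusion knock-in allele, 2 from wild-type cells without the tag and 2 of whole cell extract, whose genotype the labels do not give. The MNase experiment, in which micrococcal nuclease cut the chromatin, held 5 libraries: 1 male and 1 female homozygous knock-in, 1 male and 1 female wild-type, and 1 female whole cell extract. In the knock-in cells both copies of Smchd1 carried the tag. The cell type could not be checked against markers, since peak positions hold no expression. Each experiment was deposited as 1 list of peak positions, with 2840 MNase and 2196 sonication peaks. No read depth, peak height or value per library came with them, so no difference below has a replicate error or a test across samples. The background pull-down from wild-type cells could not be set beside any peak. Genes are not replicates, and shares of genes are given as descriptions beside the same share over all coding genes.

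Of the 33 forkhead promoter windows with a sequence in RefSeq, an MNase peak overlapped 3 (9.09%), where it overlapped 0.941% of the windows of coding genes. These 3 belonged to Foxa1, Foxd1 and Foxd2, the members with the most peak-covered surroundings. They are shown with 1 promoter each of their relatives Foxa2 and Foxd3, which had no peak within 5 kb and were chosen for this contrast after their values were seen. Each is the RefSeq window of GRCm38.p6 from 250 bases before to 50 after an annotated start, 5′ to 3′ on the strand of the gene. Capitals mark CG dinucleotides, the sites of DNA methylation, and in Foxa1 also the forkhead core motif GTAAACA.
Foxa1, minus strand, chr12:57546062-57546361: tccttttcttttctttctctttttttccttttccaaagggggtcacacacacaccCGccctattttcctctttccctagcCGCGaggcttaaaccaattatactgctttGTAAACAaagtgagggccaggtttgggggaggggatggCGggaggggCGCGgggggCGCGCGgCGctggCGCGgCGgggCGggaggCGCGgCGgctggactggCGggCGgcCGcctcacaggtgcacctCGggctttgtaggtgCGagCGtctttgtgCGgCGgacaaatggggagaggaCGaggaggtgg
Foxd1, plus strand, chr13:98353995-98354294: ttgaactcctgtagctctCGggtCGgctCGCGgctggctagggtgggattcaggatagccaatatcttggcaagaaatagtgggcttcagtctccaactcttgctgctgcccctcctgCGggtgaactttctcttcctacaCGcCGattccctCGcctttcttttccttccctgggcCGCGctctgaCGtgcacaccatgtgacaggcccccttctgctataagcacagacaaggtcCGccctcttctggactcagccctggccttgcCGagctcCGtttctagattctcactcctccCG
Foxd2, minus strand, chr4:114908849-114909148: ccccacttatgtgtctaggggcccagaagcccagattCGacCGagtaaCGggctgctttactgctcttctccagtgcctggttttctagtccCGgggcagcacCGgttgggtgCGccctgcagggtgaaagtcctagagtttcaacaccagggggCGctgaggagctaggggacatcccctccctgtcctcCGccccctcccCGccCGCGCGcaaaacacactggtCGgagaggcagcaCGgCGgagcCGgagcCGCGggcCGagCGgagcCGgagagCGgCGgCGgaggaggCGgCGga
Foxa2, minus strand, outermost of 3 annotated starts, chr2:148046920-148047219: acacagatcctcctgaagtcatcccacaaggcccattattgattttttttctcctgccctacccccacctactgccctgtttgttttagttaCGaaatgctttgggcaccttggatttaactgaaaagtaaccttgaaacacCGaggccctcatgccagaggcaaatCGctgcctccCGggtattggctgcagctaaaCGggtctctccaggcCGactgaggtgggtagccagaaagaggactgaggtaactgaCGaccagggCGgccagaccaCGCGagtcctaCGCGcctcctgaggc
Foxd3, plus strand, chr4:99656049-99656348: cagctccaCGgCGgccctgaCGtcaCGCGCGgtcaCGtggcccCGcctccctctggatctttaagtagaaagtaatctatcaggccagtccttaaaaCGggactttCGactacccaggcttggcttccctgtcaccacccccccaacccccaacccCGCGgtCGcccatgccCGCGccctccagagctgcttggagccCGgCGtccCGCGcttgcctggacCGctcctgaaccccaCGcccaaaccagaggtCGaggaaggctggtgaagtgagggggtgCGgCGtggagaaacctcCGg

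MNase peaks lay at 10 of the 43 forkhead genes, counted within 5 kb of the gene span. That is 23.3% of them, where 5.28% of all coding genes had an MNase peak in the same window, a share that would give 2.27 members. The 10 genes were Foxa1, Foxb1, Foxc2, Foxd1, Foxd2 and Foxf2 of the short group and Foxo3, Foxo6, Foxp1 and Foxp2 of the long group. They were spread over 7 chromosomes and accounted for 20 peaks. Of the related families of developmental transcription factors, 3 of 19 Sox genes, 5 of 9 Pax genes and 4 of 17 T-box genes had an MNase peak in the same window. The difference between the families was not tested.

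The short group had a peak at 6 of 24 genes, or 25%, where 3.12% of coding genes with spans under 10 kb had one, a share that would give 0.748 members. The long group had a peak at 4 of 8 genes, or 50%, where 6.5% of coding genes of at least 10 kb had one, a share that would give 0.520 members. That background is not matched in span. Its median was 33.2 kb, where that of the long group was 69.6 kb, and the long group also held Foxo4 at 6.61 kb. None of the 11 remaining genes had one, where the 6.5% share would give 0.715 members. These 11 were Foxa3, Foxj2, Foxj3, Foxk1, Foxk2, Foxm1, Foxn1, Foxn2, Foxn3, Foxn4 and Foxr2, among them the cell-cycle regulator Foxm1 and the thymus gene Foxn1.

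Peak density and covered bases ran the other way from the share of genes. Windows of the short genes added up to 0.322 Mb with 15 peaks, which is 46.6 peaks per Mb, and 4.15% of their bases lay in peaks. Windows of the Foxo and Foxp genes added up to 1.49 Mb with 5 peaks, which is 3.35 peaks per Mb, and 0.231% of their bases lay in peaks. For all coding genes under 10 kb the density was 4.49 peaks per Mb and the covered share 0.495%, and for those of at least 10 kb they were 1.29 peaks per Mb and 0.0842%. The density of the short group rested on Foxa1, Foxd1 and Foxd2, set apart after their values were seen, with 12 of the 15 peaks and 27.5% of their windows covered. The other 21 short genes had 3 peaks, 10.7 peaks per Mb, and 0.591% of their bases lay in peaks. Of these 21 genes, 3 (14.3%) had a peak. The background keeps its own most covered genes, so these trimmed values cannot show whether the other short genes are like it. In these sums a peak near several genes counts for each of them. A long gene offers more bases to a peak, and counting only 5 kb around each gene boundary left 6 of 24 short and 3 of 8 long genes, with Foxp1 lost. By that count 3.45% of all coding genes had a peak, 3.12% of those under 10 kb and 3.64% of those of at least 10 kb.

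**Figure D1:**
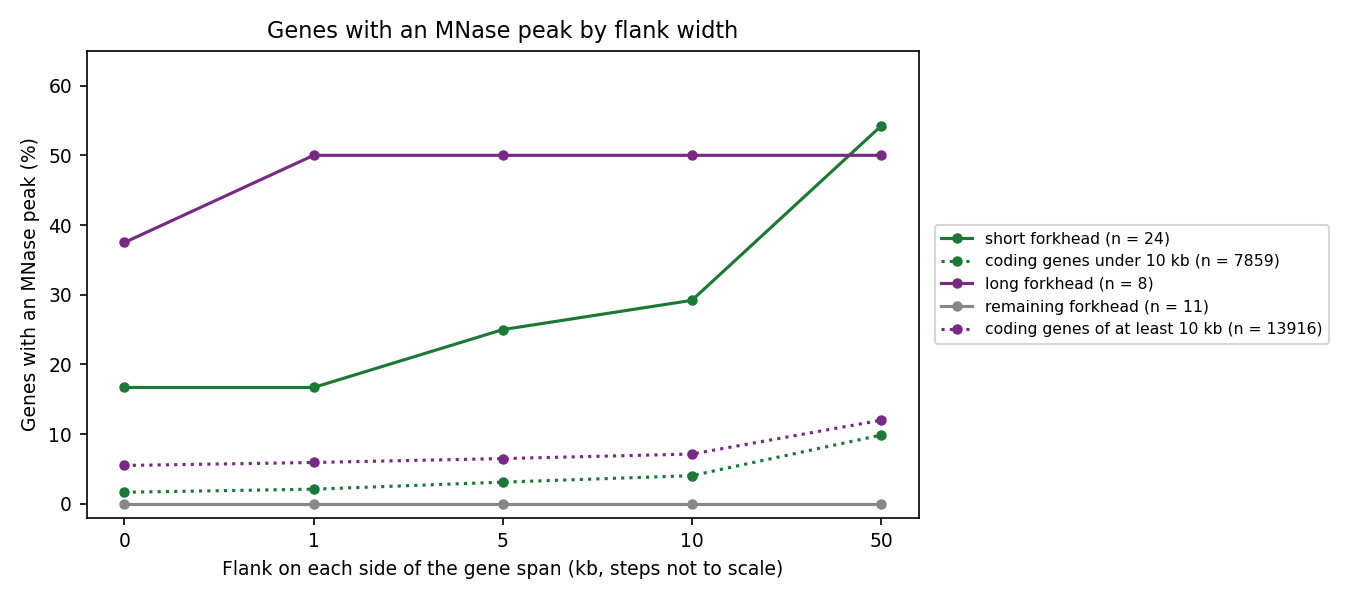
Percentage of genes with an MNase peak (vertical axis) against the flank added to each side of the gene span in kb (horizontal axis, steps not to scale), for the forkhead groups (solid lines) and for all coding genes of each span class (dotted lines). With 5 kb the short genes stand at 25% and the long genes at 50%; with 50 kb the order turns, at 54.2% and 50%, and the remaining genes stay at 0 throughout.

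Foxa1 was the member with the most peaks and the largest covered share. This pioneer factor gene of endoderm spans 57540628 to 57548029 on chromosome 12. Its 6 peaks covered 5100 bp, or 29.3% of its window. Along the chromosome they were 600, 1200, 1050, 1200, 600 and 450 bp wide. The peaks of 1200 and 600 bp from 57544501 to 57546300 adjoined with no gap, and the 600 bp one covered the annotated start shown above. That start, at 57546111, lies 1918 bp inside the gene span. The first 2 peaks and the third, which crossed the lower boundary, lay at the far end of the gene from that start. The last, from 57548701 to 57549150, overlapped Ttc6, a neighbouring gene. Within 50 kb Foxa1 had 8 peaks. Its relative Foxa2, a gene of floor plate and endoderm, had none within 5 kb and 1 within 50 kb, 9.23 kb away, and Foxa3, a liver gene, had none within 50 kb.

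Foxd2 carried the widest forkhead peak. Foxd2 is a gene of mesenchyme and kidney that spans 114906280 to 114908898 on chromosome 4. Its peak of 2250 bp, from 114907951 to 114910200, covered the annotated start and reached into Foxd2os, a non-coding gene next to it. Of the 2840 MNase peaks, 60 (2.11%) were at least as wide. A peak of 750 bp lay 3.58 kb beyond the other end of the gene and overlapped the predicted gene Gm33655. One of 600 bp lay 4003 bp upstream of the start and overlapped Foxd2os. Together the 3 peaks covered 3600 bp, or 28.5% of the window. Foxe3, a lens gene further along the same chromosome, had no peak of its own within 5 kb, and the 29.8 kb that hold both genes and their flanks contained only the 3 peaks of Foxd2.

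Foxd1 had a pattern like that of Foxd2. This gene of kidney stroma and retina spans 98354245 to 98356705 on chromosome 13. A peak of 1050 bp, from 98353801 to 98354850, covered its start, one of 1200 bp ended 595 bp upstream of the start, and one of 750 bp began 96 bp past the far end of the gene. They covered 3000 bp, or 24.1% of the window, and the peak over the start was 150 bp from its upstream neighbour. The other Foxd members, the neural crest gene Foxd3 and Foxd4, had no peak within 50 kb; the nearest to Foxd3 was 80.2 kb away.

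**Figure D2:**
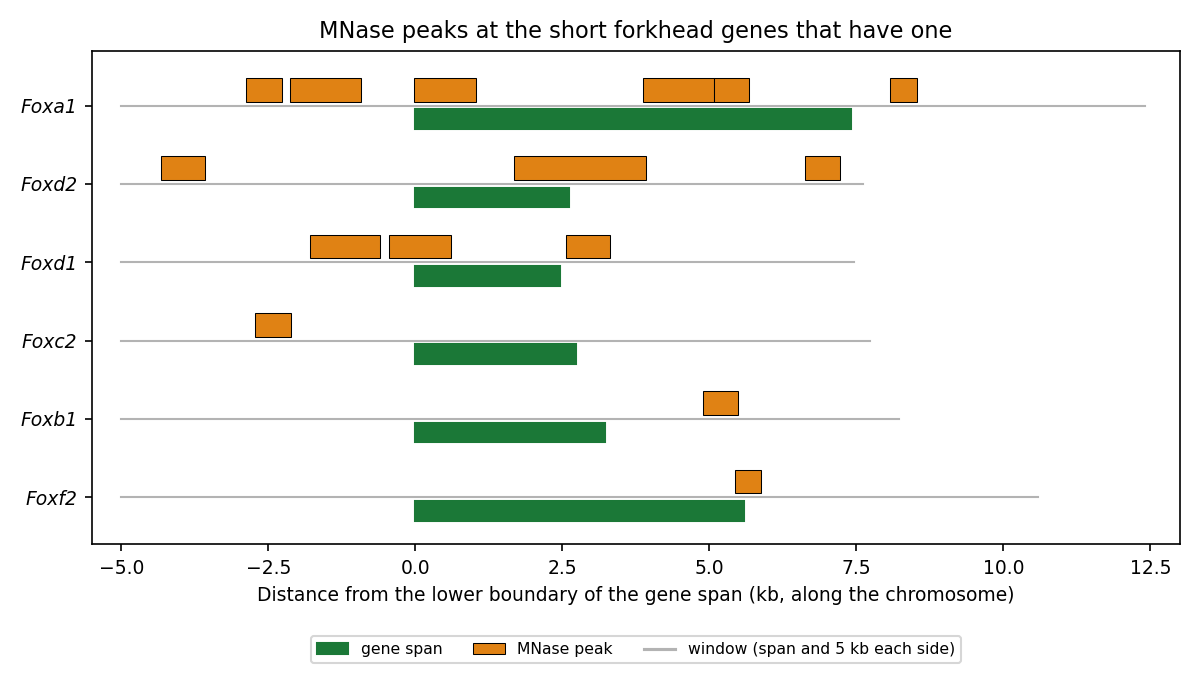
MNase peaks (orange) and gene spans (green) at the 6 short forkhead genes with a peak, against distance from the lower boundary of the gene in kb along the chromosome; grey lines mark the windows. Peaks crowd the windows of Foxa1, Foxd2 and Foxd1, and each of the other genes has 1 peak beside or across a boundary.

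The other 3 short genes with a peak had 1 each, of 450 to 600 bp, that covered 2.89% to 4.72% of their windows. At Foxc2, a gene of lymphatic vessels and mesenchyme, a peak from 121113451 to 121114050 on chromosome 8 lay 2.12 kb below the lower boundary. It was the only MNase peak in the 56.3 kb that hold Foxf1, Foxc2, Foxl1 and their flanks. At Foxb1, a gene of the hypothalamus and spinal cord on chromosome 9, the peak lay 1.66 kb beyond the upper boundary and overlapped the gene B230323A14Rik. At Foxf2, a gene of gut and palate mesenchyme on chromosome 13, the peak of 450 bp from 31631251 to 31631700 crossed the upper boundary, 5435 bp downstream of the annotated start. Foxf2 shares its stretch of chromosome with Foxq1 and Foxc1, and these 262 kb with flanks held 2 MNase peaks, neither within 50 kb of Foxq1 or Foxc1.

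The 5 Foxo and Foxp peaks were single or paired and 600 to 900 bp wide. Foxo3, a stress-response and stem cell maintenance gene that spans 42181845 to 42276695 on chromosome 10, had 1 peak of 900 bp, which lay 956 bp upstream of its annotated start and outside the gene. Foxo6, a gene of the developing brain on chromosome 4, had 1 peak of 750 bp inside its 20.2 kb span, 3.76 kb from the upper boundary. Foxp2, a gene of vocal learning circuits that spans 14901349 to 15441977 on chromosome 6, had 2 peaks of 600 bp. One crossed its lower boundary and the other lay 3.35 kb outside it, so none lay in the rest of the 541 kb. Foxp1, a gene of neurons and lymphocytes with a span of 597 kb on the same chromosome, had 1 peak of 600 bp, from 99484801 to 99485400. This peak lay inside the gene, 37.3 kb from the upper boundary and 35593 bp downstream of the nearest of the 3 starts in the promoter table. The insulin-signalling effector Foxo1 and also Foxo4, Foxp3 and Foxp4 had none within 50 kb; the nearest to Foxp4 was 51.4 kb away.

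**Figure D3:**
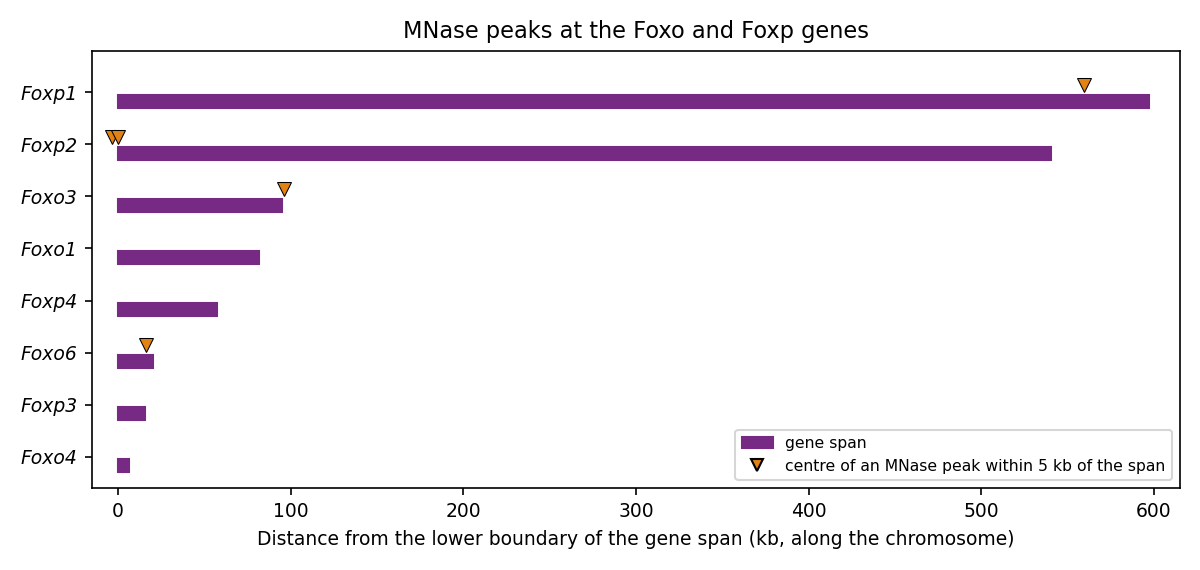
Centres of MNase peaks (triangles) and gene spans (purple) for the 8 Foxo and Foxp genes, against distance from the lower boundary in kb along the chromosome. The 5 peaks sit at or near an end of Foxp2, Foxo3 and Foxo6 and well inside 1 end of Foxp1, and the other 4 genes have none.

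Of the 20 peaks, 10 came within 1 kb of a gene boundary and 5 crossed one. In the short group the numbers were 8 and 4 of 15 peaks, and in the long group 2 and 1 of 5 peaks. Over all coding genes, 559 of 1992 peaks in the windows came within 1 kb of a boundary. For coding genes under 10 kb it was 237 of 498, so the 8 of 15 in the short group is close to the background. For coding genes of at least 10 kb it was 322 of 1494. Peaks that cross a boundary were not counted over all coding genes. A peak within 5 kb of a short gene is always within 5 kb of a boundary, so that distance was read only in the long group, where 4 of 5 peaks met it. For coding genes of at least 10 kb, 715 of 1494 peaks met it. The strand was known for 6 of the 10 genes, with 15 peaks: 3 covered an annotated start, 4 lay upstream and 8 downstream of the nearest one. The downstream side of a window also holds most or all of the gene, so it offers more bases to a peak. Foxa1 had more of the downstream peaks than any other member, and the direction was not counted over all coding genes. Forkhead peaks had a median width of 675 bp (range 450 to 2250 bp), where the median of all MNase peaks was 450 bp. None of the 20 had the smallest width in the list, 300 bp, which 38.2% of all MNase peaks had. All MNase peaks include those far from genes, and widths were not taken for peaks near coding genes alone. Foxa1, Foxd1 and Foxd2 had 12 of the 20 peaks. Widths move in steps of 150 bp.

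Promoter windows were found for 28 of the 43 genes, 33 windows in all. No entry was matched for Foxb1, Foxc2, Foxe1, Foxf1, Foxh1, Foxj1, Foxk1, Foxl1, Foxm1, Foxn2, Foxo4, Foxo6, Foxp2, Foxq1 and Foxs1. An MNase peak overlapped 3 of the 33 windows, 9.09%, where it overlapped 0.941% of the 21262 windows of coding genes. A sonication peak overlapped none of the 33, where it overlapped 0.0847% of coding gene windows. All 3 were among the 17 windows of short genes. The 8 windows of Foxo and Foxp genes, which came from 5 genes, and the 8 of the remaining genes had none. Foxb1, Foxc2, Foxo6 and Foxp2 had an MNase peak within 5 kb but no window. The windows therefore cannot show whether the groups differ at their promoters. The 3 windows in peaks held 26 (Foxa1), 26 (Foxd2) and 15 (Foxd1) CG dinucleotides, and the 30 others from 3 to 59, with a median of 19. The median over coding gene windows was 13, and over the 200 coding windows in an MNase peak 21. Forkhead windows with more CG dinucleotides than those of Foxa1 and Foxd2 had no peak, among them Foxk2 with 59, Foxj3 with 42 and Foxo3 with 35. GC content was 62.3%, 67.7% and 57.7% in Foxa1, Foxd2 and Foxd1, within the range of 40.7% to 79.3% for the family. The forkhead core, searched as TGTTTAC or GTAAACA to cover both strands, occurred in 1 of the 33 windows, that of Foxa1, at base 110 of the sequence above. It occurred in 3.01% of coding gene windows, so the family's 3.03% was close to the background.

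**Figure D4:**
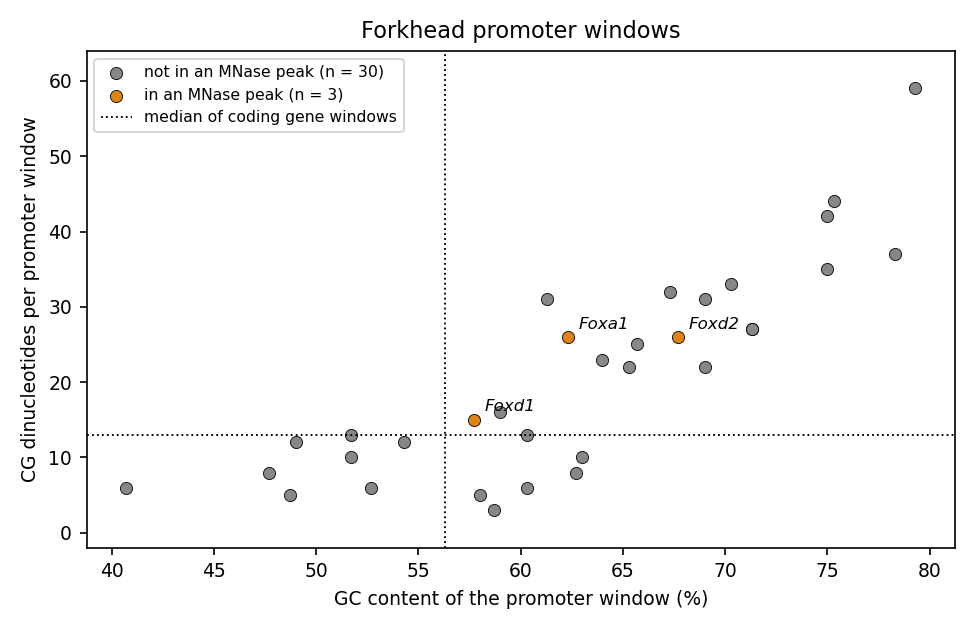
Number of CG dinucleotides (vertical axis) against GC content in percent (horizontal axis) for the 33 forkhead promoter windows, with those in an MNase peak in orange; dotted lines mark the medians over coding gene windows, 13 CG dinucleotides and 56.3% GC. The 3 windows in peaks lie inside the range of the 30 others.

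Within 50 kb, 39.5% of the forkhead genes had an MNase peak, where 11.3% of all coding genes had one. For the short group it was 54.2%, where 9.87% of coding genes under 10 kb had one. Of the 33 forkhead genes without an MNase peak within 5 kb, 7 had one within 50 kb. These were all short genes: Foxa2 at 9.23 kb, Foxe3 at 10.9 kb, Foxl1 at 13.6 kb, Foxb2 at 21.6 kb, the inner-ear gene Foxi1 at 22.3 kb, Foxi2 at 23.0 kb and Foxf1 at 25.3 kb. The peak nearest to Foxe3 belonged to Foxd2, and that nearest to Foxf1 and Foxl1 to Foxc2, so these genes share peaks with their neighbours. For the other 26 genes, distances ran from 51.4 kb (Foxp4) to 8.89 Mb (Foxr2, on the X, where the MNase list had 10 peaks in all). The most isolated autosomal member was the ovary gene Foxl2, at 1.68 Mb. The short genes Foxe1, Foxh1, Foxi3, Foxj1, Foxr1 and Foxs1 also had no MNase peak within 50 kb, among them the cilia gene Foxj1 and the thyroid gene Foxe1.

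Sonication peaks were at none of the 43 forkhead genes within 5 kb, where 3.38% of all coding genes had one, a share that would give 1.45 members. For the short group the background of genes under 10 kb was 0.878%, which would give 0.211 members, so a count of 0 is close to the background. The 20 MNase peaks at forkhead genes lay in these same windows, so none of them could overlap a sonication peak, and this is not a separate result. Within 50 kb, only Foxp3 had a sonication peak. This gene of regulatory T cells is on the X, and its nearest peak, of 450 bp, lay 11.7 kb away. Next came Foxp2 at 99.5 kb and Foxl2 at 122 kb, and the most distant was Foxf1 at 7.52 Mb. The X held 549 sonication peaks, and 13.6% of its 963 coding genes had one within 5 kb, a share that would give 0.408 of the 3 X-linked members, Foxo4, Foxp3 and Foxr2. None of them had one, which is close to that background. Foxo4 lay in a broad domain of enrichment in the authors' domain list, from 94985001 to 124630000, and Foxp3 and Foxr2 lay in none. The list has 8 domains on the X, from 1.71 to 39.9 Mb long. The share of X genes inside them was not counted, so the place of Foxo4 has no background beside it. The experiments differ both in how chromatin was cut and in the sex of the cells, so these cannot be told apart, and no test was made of one list against the other.

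**Figure D5:**
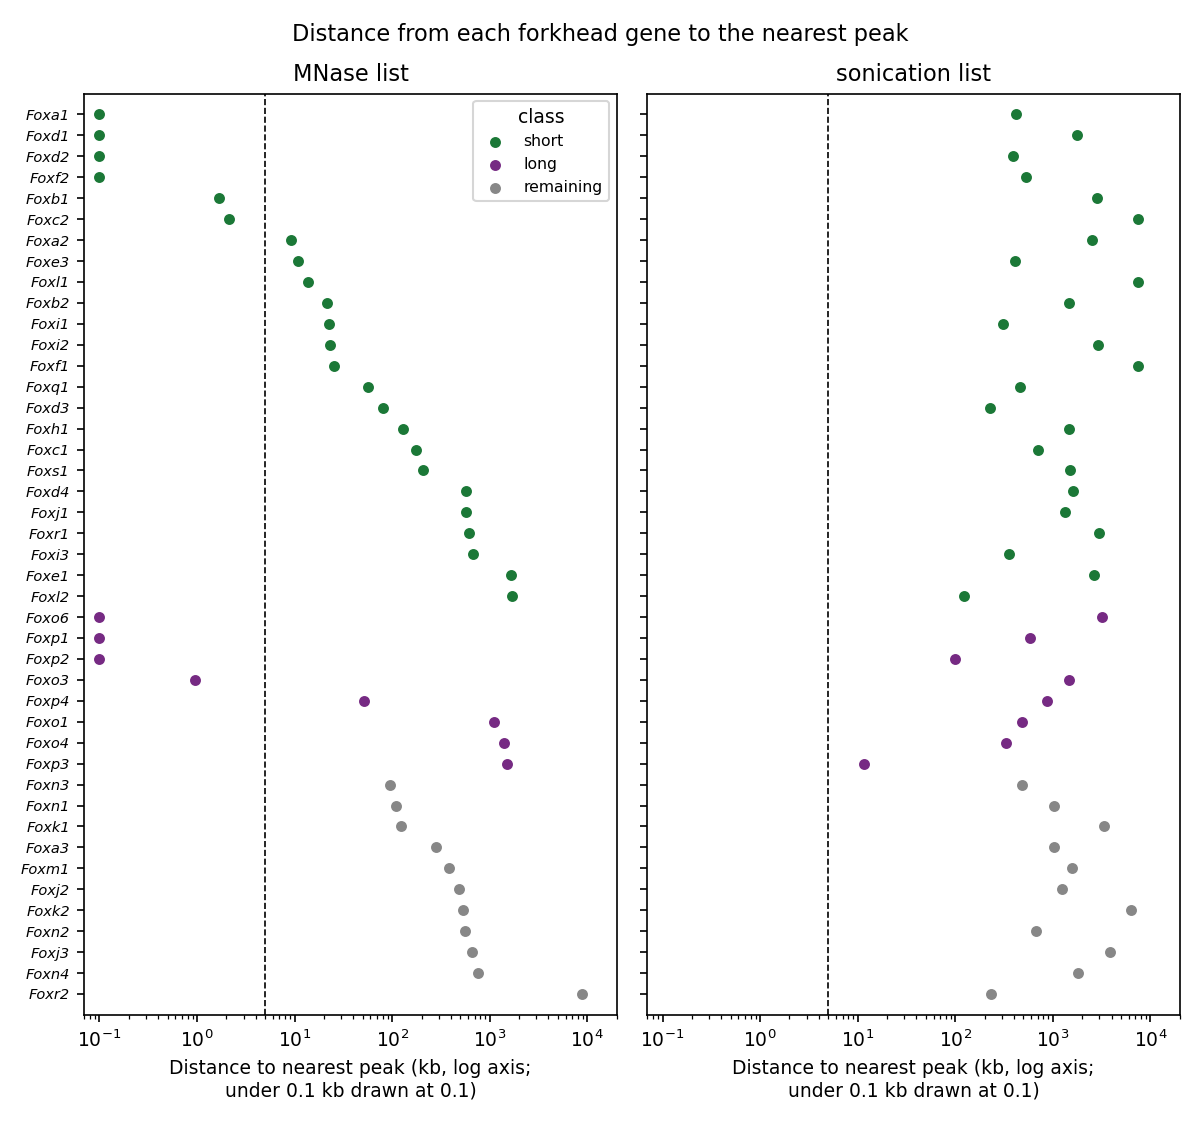
Distance in kb (log axis, values under 0.1 drawn at 0.1) from each of the 43 forkhead genes to the nearest MNase peak (left) and sonication peak (right), ordered within the short, long and remaining groups; the dashed line is at 5 kb. In the MNase list 10 genes lie left of the line, and in the sonication list none does, with Foxp3 the closest at 11.7 kb.

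Genes that act with forkhead factors also had MNase peaks in part, counted in the same 5 kb window with the same MNase background of 5.28%. Among 9 neural crest genes, the field of Foxd3 and Foxc1, 6 had a peak, with the largest covered shares at Tfap2a (39.6% of the window), Msx1 (36.2%) and Snai2 (11.1%). Of the 10 telencephalon genes, which pattern the forebrain, 4 had one, led by Nkx2-1 (24.0%), Dlx2 (10.1%) and Six3 (3.32%). Of the 8 endoderm genes, partners of the Foxa factors, 4 had one, led by Gata4 (8.88%), Sox17 (3.64%) and Onecut1 (2.78%). Peaks were at 1 of 11 hedgehog genes (Ptch1, 0.599%) and 0 of 9 genes of the kinase pathway that controls Foxo proteins. Both counts are close to the 5.28% background. Of the 8 cilia genes of the Foxj1 programme, 2 had a peak (Ccno, 5.78%, and Rfx3, 0.456%). Sonication peaks were at 3 neural crest genes (Msx1, Tfap2a and Tfap2b), at Sirt1 of the kinase pathway list and at the cilia gene Gmnc, and at none of the hedgehog, endoderm and telencephalon genes. The sonication background over all coding genes was 3.38%, and in lists of 8 to 11 genes a count of 0 or 1 is close to it.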

How the data were processed

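The authors deposited 1 peak list for each experiment and 1 list of broad domains; of these only the start and end positions (other values) were used. The submitters' processing notes name bcl2fastq, Bowtie 0.12.9, MACS2 and mm10, with no role for any of them; the type column of the MNase list names SeqMonk as caller. What part the control libraries had in a list is not stated. Positions fall on steps of 150 bp, the smallest width is 300 bp, and the value column was empty. Library depth is unknown, so no interval or test across libraries was possible.

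Gene spans came from RefSeq (GRCm38.p6) without mitochondrial genes and without 357 records in the first 3 Mb of chromosomes other than Y, an assembly gap; 49599 records were used. A gene had a peak if at least 1 bp of it lay in the span widened by 5 kb. 1 gene that the symbol pattern selects and 2 genes of a partner list are not reported here and enter no count of forkhead genes or of that list. All other members with a peak were named, and up to 3 genes of each partner list by covered share; Dnai1 was matched by synonym. Members and lists were chosen with earlier results of these data known. Overlap counting was tested on simulated data. Alternatives were flanks of 0, 1, 10 and 50 kb, peaks wider than 300 bp, an overlap of at least 150 bp, span limits of 5 and 20 kb, peaks within 1 kb merged and, added after seeing the data, gene boundaries only. Python 3.11.15 with pandas 2.3.3 was used.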

Additional observations from a re-analysis of the deposited data

How the results depend on the processing

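No paired analysis was possible because the deposited lists hold no value per library, and for the same reason no library could be left out in turn. The number of forkhead genes with an MNase peak, 10 with 5 kb, was 7 on the gene span alone and 17 with 50 kb. It was 8 with 1 kb, 11 with 10 kb, 9 around gene boundaries only, and 10 both with peaks wider than 300 bp and with an overlap of at least 150 bp. The share over all coding genes rose with the flank too, from 4.12% on the gene span alone to 11.3% with 50 kb. These shares would give 1.77 and 4.84 members. With 1 and 10 kb they would give 1.96 and 2.59 members, and around gene boundaries only 1.48. The share of short genes with an MNase peak minus that of Foxo and Foxp genes, -25 percentage points, became 4.17 with 50 kb, and ran from -33.3 to -12.5 under the other alternatives. Merging peaks within 1 kb changed 20 peaks to 16. The covered share of short windows, 4.15%, was 2.56% with 10 kb and 0.876% with 50 kb; that of Foxo and Foxp windows, 0.231%, was 0.124% on the gene span alone and 0.139% with 1 kb. The wider windows hold more bases by construction. The covered share of short windows stayed above that of Foxo and Foxp windows with every flank tried. The same order held over all coding genes with every flank. On the gene span alone it was 0.587% under 10 kb and 0.0732% for longer genes, and with 50 kb 0.321% and 0.0784%. In the short group the share with 5 kb rested on Foxa1, Foxd1 and Foxd2. The sonication count, for which span limits and merging were not run, stayed at 0 on the gene span alone, with flanks of 1 and 10 kb, with wider peaks, with an overlap of at least 150 bp and around gene boundaries only. With 50 kb it was 1, with 0.0203% of Foxo and Foxp windows covered. Depth limits these counts to an unknown degree.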
